A study of Mus musculus with 6 samples.

Results

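The cardiac transcription factors described here are the 9 genes Gata4, Gata5, Tbx5, Tbx20, Nkx2-5, Hand1, Hand2, Mef2c and Isl1, chosen by name out of the 24062 genes in the deposited tables. All 9 passed the filter on low counts. They were measured by polyA+ RNA-seq in dissected heads of C57BL/6 mouse embryos at embryonic day 8.5. The 6 libraries cover 3 genotypes at Prdm15, 2 libraries each: wild type (Prdm15 tm1a+/+), heterozygous (Prdm15 tm1a+/-) and mutant (Prdm15 tm1a-/-). The labels name no Cre or transgene, and the series title ties the mutation to forebrain development. The labels do not say whether the embryos of a genotype were littermates.

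These factors form a network that builds the heart. GATA zinc-finger factors, the homeodomain factor Nkx2-5, T-box factors and the MADS-box factor Mef2c act together on shared enhancers of contractile genes in the cardiac crescent and early heart tube. Hand1 and Hand2 are basic helix-loop-helix proteins with parts in the left and right ventricle, and Isl1 marks the progenitors of the second heart field. At this stage the heart tube lies just beneath the head folds. Several members also work elsewhere: Gata4 and Hand1 in extraembryonic tissues, Mef2c and Hand2 in neural crest, Hand2 in the decidua of the uterus, and Isl1 in motor and cranial sensory neurons.

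The 2 count files of wild-type library 2 and mutant library 1 are attached in the deposit to each other's samples. Each file was taken under the title it bears, which matches the deposited RPKM column of that title: 0 genes differ in being at 0, and 100% of the ratios at genes above 50 counts lie within 0.1%. With the files as attached, 0 of the 9 members passed in any comparison by edgeR's quasi-likelihood test, 0 at an unadjusted p under 0.05, and every result below rests on the assignment by title. Library totals ran from 29412227 to 40439234 gene counts. Prdm15 itself had 35.1 and 32.6 CPM (read counts scaled to library size by TMM) in wild-type, 28.3 and 31.8 in heterozygous and 26.5 and 32.0 in mutant libraries. The whole-gene count does not check the genotype of an insertion allele, and Prdm15 did not pass in mutant against wild type (log2 fold change -0.21, SE 0.12, adjusted p = 0.221). The Xist level, which follows embryo sex, was 1330 CPM in wild-type library 2, 1230 and 1100 in the mutant libraries and at most 0.352 in the other three.

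In GENCODE M21 (GRCm38), Gata4 lies at chr14:63198922-63271692, Gata5 at chr2:180325133-180334699, Tbx20 at chr9:24718138-24774303, Nkx2-5 at chr17:26838664-26845009, Hand1 at chr11:57828705-57832818 and Isl1 at chr13:116298281-116309689, all on the minus strand. Tbx5 lies at chr5:119832668-119885219, Hand2 at chr8:57320983-57324633 and Mef2c at chr13:83504034-83667080, all on the plus strand. No member shares a locus with another.

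Promoter windows from RefSeq (GRCm38.p6) were found for 6 members, in 8 windows because Mef2c has 3. Gata4, Tbx5 and Hand1 had none in the table. The 250 bases before the start site are printed 5′ to 3′ on the gene's strand. Shown are 2 members that passed as higher in mutants (Gata5, Tbx20) and the 2 that did not pass (Hand2, Isl1). Hand2 and Isl1 were also higher in both mutant libraries than in both wild types, so only the threshold sets them apart here. Capitals mark matches on either strand to the motifs of the members' own families. The Gata5 window is chr2:180334680-180334929 on the minus strand and its end reaches into the first GENCODE exon of Gata5. The Tbx20 window is chr9:24774304-24774553 on the minus strand, outside annotated exons. The Hand2 window is chr8:57320733-57320982 on the plus strand and overlaps exons of the antisense gene Hand2os1. The Isl1 window is chr13:116309689-116309938 on the minus strand and shares its last base with the gene.
Gata5: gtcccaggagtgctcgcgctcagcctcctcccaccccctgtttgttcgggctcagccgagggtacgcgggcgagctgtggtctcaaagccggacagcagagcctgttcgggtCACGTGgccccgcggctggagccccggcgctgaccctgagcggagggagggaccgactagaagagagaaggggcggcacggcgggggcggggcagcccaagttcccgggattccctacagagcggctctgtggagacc
Tbx20: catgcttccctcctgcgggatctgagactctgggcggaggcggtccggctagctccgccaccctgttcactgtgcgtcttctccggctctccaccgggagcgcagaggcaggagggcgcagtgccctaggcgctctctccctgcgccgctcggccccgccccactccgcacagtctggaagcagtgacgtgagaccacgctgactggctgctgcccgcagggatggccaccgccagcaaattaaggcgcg
Hand2: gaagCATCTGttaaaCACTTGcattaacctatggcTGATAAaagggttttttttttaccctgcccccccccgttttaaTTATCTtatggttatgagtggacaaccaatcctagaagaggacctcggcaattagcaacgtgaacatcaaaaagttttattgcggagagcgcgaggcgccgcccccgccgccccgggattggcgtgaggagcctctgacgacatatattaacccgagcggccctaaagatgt
Isl1: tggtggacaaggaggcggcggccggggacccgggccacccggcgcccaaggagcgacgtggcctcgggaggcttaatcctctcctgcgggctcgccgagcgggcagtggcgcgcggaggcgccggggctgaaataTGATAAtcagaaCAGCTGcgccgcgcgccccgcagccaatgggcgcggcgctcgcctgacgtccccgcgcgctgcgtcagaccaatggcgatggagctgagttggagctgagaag

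The motifs searched on both strands were that of GATA factors (AGATAA or TGATAA, held by 16.6% of all 32851 windows), the Nkx motif TNAAGTG (10.1%), the T-box motif AGGTGT (11.8%), the E-box CANNTG bound by Hand-type proteins (66.2%) and the Mef2 motif TAAAAATA (2.45%). GATA letters stood in the Hand2 window at 2 places and in the Isl1 window at 1, and in none of the Gata5, Tbx20 and Nkx2-5 windows. E-box letters stood at 2 places in Hand2 and at 1 each in Gata5, Nkx2-5 and Isl1, a motif that most windows hold. Tbx20 held none of the 5 motifs. The Mef2c windows held E-box letters in 2 of 3 and T-box letters in 1. The bases after the start of that T-box window were not found in a GENCODE transcript of Mef2c. The Nkx2-5 window and all Mef2c windows but the first lie within the GENCODE spans of their genes. The GC content was 70.0% for Gata5, 68.8% for Tbx20 and 71.2% for Isl1, against 49.2% for Nkx2-5 and for Hand2 and a median of 52.4% over all windows.

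The comparison of mutant with wild-type heads asks how the Prdm15 mutation changes the transcripts of the head. Of the 9 members, 7 were higher in mutant heads and 0 lower (edgeR's quasi-likelihood test, Benjamini-Hochberg adjusted p under 0.05 over 15187 genes), where 17.1% of all genes tested were called higher and 13.6% lower. The 7 were Gata4, Gata5, Tbx5, Tbx20, Nkx2-5, Hand1 and Mef2c, with fold changes from 1.88 to 27.6, and Hand2 and Isl1 did not pass. The median log2 fold change of the 9 was 3.20, against -0.02 over all genes. In whole heads, a change in the number of cells of a type and a change in RNA per cell cannot be told apart in these values. The heterozygous comparison uses the same wild-type libraries as the mutant one, so the folds below are not independent.

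**Figure D1:**
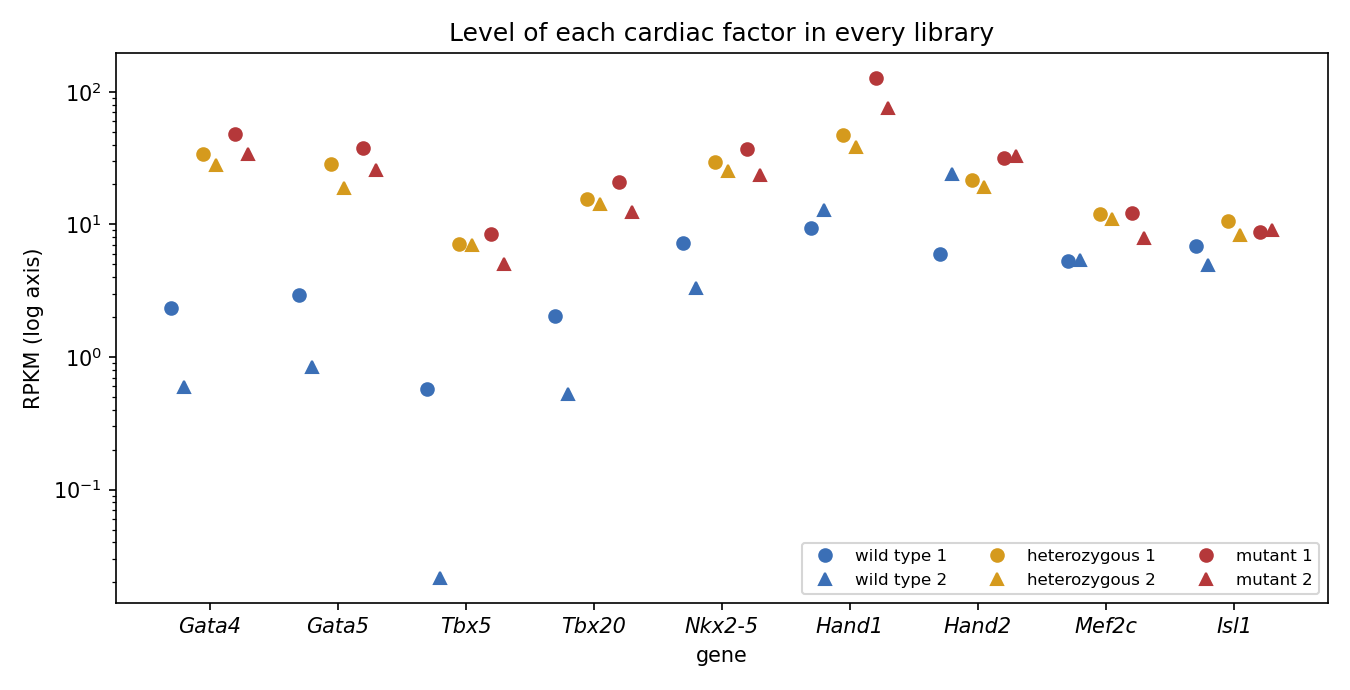
RPKM of each of the 9 factors (log axis) in the 6 libraries, points for single libraries by genotype. Gata4, Gata5, Tbx5, Tbx20 and Nkx2-5 sit low in both wild-type libraries and high in all 4 others, while Hand2 is high in wild-type library 2.

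Gata4, a zinc-finger factor needed for heart tube assembly, had 7.93 and 2.02 CPM in wild types, 115 and 94.8 in heterozygotes and 165 and 115 in mutants. All 4 carrier libraries were far above both wild types, and the lower mutant library stood level with the higher heterozygous one. Against wild type this is a log2 fold change of 4.79 in mutants (SE 0.56, adjusted p = 0.00358) and 4.37 in heterozygotes (SE 0.55, adjusted p = 0.0119). The 2 wild-type libraries themselves differed, and leaving out wild-type library 1 raised the mutant value to 6.13, while leaving out wild-type library 2 lowered it to 4.13. Gata5, its close relative in the endocardium and endoderm, had 9.7 and 2.76 CPM in wild types, 94.1 and 61.8 in heterozygotes and 126 and 84.3 in mutants. The mutant and heterozygous ranges overlapped, and both lay above wild type. Gata5 changed by a log2 of 4.06 in mutants (SE 0.58, adjusted p = 0.00628; 5.26 without wild-type library 1 and 3.42 without wild-type library 2) and 3.63 in heterozygotes (SE 0.57, adjusted p = 0.0234). An antisense gene, Gata5os, overlaps Gata5 and is counted apart, but with a strand setting not given in the sources used here the count can hold reads of both.

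Among the members, the T-box factor Tbx5 had the lowest wild-type level. Tbx5, which patterns the inflow part and left ventricle of the heart, had 2.25 and 0.0853 CPM in the wild types, the second from 3 reads (exact Poisson 95% interval 0.619 to 8.77 reads). The heterozygous libraries had 27.9 and 27.8 CPM and the mutant ones 33.8 and 20.0, ranges that overlapped each other and not the wild types. Tbx5 was thus 22.2-fold higher in mutants (log2 4.47, SE 0.89, adjusted p = 0.0158) and 22.9-fold higher in heterozygotes (log2 4.52, SE 0.89, adjusted p = 0.0425). Tbx5 depended on single libraries: the mutant call was lost without mutant library 1 (adjusted p = 0.0729), and the value rose to 8.25 without wild-type library 1 and fell to 3.56 without wild-type library 2. Tbx20, a T-box factor needed for chamber growth, had 13.1 and 3.36 CPM in wild types, 99.7 and 91.4 in heterozygotes and 136 and 80.2 in mutants. Carrier libraries did not overlap the wild types. The fold was 13.0 in mutants (log2 3.70, SE 0.60, adjusted p = 0.00899) and 11.5 in heterozygotes (log2 3.52, SE 0.60, adjusted p = 0.0292), and the mutant log2 value was 5.02 without wild-type library 1 and 3.03 without wild-type library 2.

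Nkx2-5, the homeodomain factor that marks cardiac progenitors, had 11.1 and 5.06 CPM in the wild types, 45.2 and 38.5 in the heterozygotes and 56.6 and 36.0 in the mutants. Both carrier groups lay above wild type and overlapped each other. The rise was 5.71-fold in mutants (log2 2.51, SE 0.40, adjusted p = 0.00833) and 5.15-fold in heterozygotes (log2 2.37, SE 0.40, adjusted p = 0.0281). Without wild-type library 1 the mutant value was 3.21. Mef2c, the MADS-box partner of Nkx2-5 and GATA factors, which is also made in neural crest and endothelium, had 33.8 and 34.8 CPM in wild types, 76.8 and 70.8 in heterozygotes and 78.2 and 50.5 in mutants. It was the member with the closest pair of wild-type libraries and the smallest rise that passed, with a log2 fold change of 0.91 in mutants (SE 0.20, adjusted p = 0.0207) and 1.10 in heterozygotes (SE 0.20, adjusted p = 0.033). The mutant call was lost without wild-type library 1 (adjusted p = 0.0771), without wild-type library 2 (adjusted p = 0.0571) and in a fit with Xist-high libraries as a covariate.

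Hand1, a helix-loop-helix factor of the left ventricle, extraembryonic mesoderm and trophoblast, had 17.8 and 24.3 CPM in the wild types, 90.2 and 73.1 in the heterozygotes and 243 and 144 in the mutants. The 3 groups did not overlap. Hand1 rose 9.20-fold in mutants (log2 3.20, SE 0.30, adjusted p = 0.00176) and 3.88-fold in heterozygotes (log2 1.96, SE 0.29, adjusted p = 0.0193). Its relative Hand2, of the right ventricle, branchial arches and decidua, had 13.3 and 53.1 CPM in the wild types, 47.8 and 42.4 in the heterozygotes and 70.9 and 73.6 in the mutants. The mutant libraries lay above all others, but the wild types spanned the heterozygotes, and Hand2 did not pass in mutants (log2 1.13, SE 0.57, adjusted p = 0.184) or heterozygotes (log2 0.45, SE 0.57, adjusted p = 0.672).

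The Hand2 calls depend on which wild-type library is kept. Without wild-type library 2 its log2 fold change was 2.43 in mutants (adjusted p = 0.000801) and 1.76 in heterozygotes (adjusted p = 0.0034), both past the threshold, and without wild-type library 1 the values were 0.46 and -0.23, the first past the threshold (adjusted p = 0.0469) and the second not (adjusted p = 0.33). Wild-type library 2 also carried decidual transcripts: a list of 10 decidual genes, chosen after Hand2 was seen to be high there and including Wt1, also on the list of heart factors, summed to 355 CPM, against 7.55 in wild-type library 1, 5.73 and 8.71 in the heterozygotes and 11.3 and 122 in the mutants. Prl8a2, a prolactin-family hormone of decidua, had 281 CPM in wild-type library 2, 66.0 in mutant library 2 and at most 6.44 in the other four, and no decidual gene of the 10 was at 0 in any library. The part of these transcripts in the Hand2 level was not tested. An antisense gene on the other strand, Hand2os1, overlaps Hand2 and its symbol is not among those counted.

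Isl1, the LIM-homeodomain factor of the second heart field that also marks motor and cranial neurons, had 17.4 and 12.5 CPM in the wild types, 26.7 and 21.1 in the heterozygotes and 22.4 and 22.9 in the mutants. The wild types lay below all others by a small margin. Neither difference passed, at a log2 of 0.60 in mutants (SE 0.18, adjusted p = 0.0576) and 0.68 in heterozygotes (SE 0.19, adjusted p = 0.0993). Isl1 lay close to the threshold: the mutant difference passed without wild-type library 1 (0.87, adjusted p = 0.0319) and in 4 of 11 other scalings and tools, among them DESeq2 (adjusted p = 0.022), and the heterozygous one in 3 of 11. The sum of the motor and cranial neuron list was 103 and 104 CPM in wild types, 83.5 and 77.4 in heterozygotes and 49.3 and 42.5 in mutants. Tubb3 (52.6 and 51.8 CPM) and Stmn2 (32.8 and 36.8) made up most of the wild-type sums. In mutants 5 of the 9 genes tested were lower and 0 higher. Phox2a lay the other way without passing, at 2.1 and 1.71 CPM in wild types and 2.79 and 3.34 in mutants. The part of such neurons in the Isl1 level was not tested. The authors' deposited table gives mutant against wild-type log2 fold changes of 4.80 for Gata4, 3.19 for Hand1, 1.12 for Hand2 (false discovery rate 0.045) and 0.59 for Isl1 (false discovery rate 0.054). Those rates go with the authors' likelihood ratio statistic. Hand2 thus lay under 0.05 there, but not by the quasi-likelihood test used here (adjusted p = 0.184).

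In heterozygous against wild-type heads the same 7 members passed, all higher, where 6.03% of all genes were called higher and 0.533% lower. The median log2 fold change of the 9 was 2.37, against -0.01 over all genes. The count rests on both heterozygous libraries: without heterozygous library 1, 0 members passed (7 at an unadjusted p under 0.05), and without heterozygous library 2, 2 passed, Gata4 and Hand1. Without mutant library 1, mutant library 2 or wild-type library 1, 5 passed in each case. The wild-type libraries moved the sizes as in the mutants: Gata4 was 5.7 without wild-type library 1 and 3.72 without wild-type library 2, and Tbx5 was 8.29 and 3.62. By DESeq2 8 passed and by limma-voom 6.

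**Figure D2:**
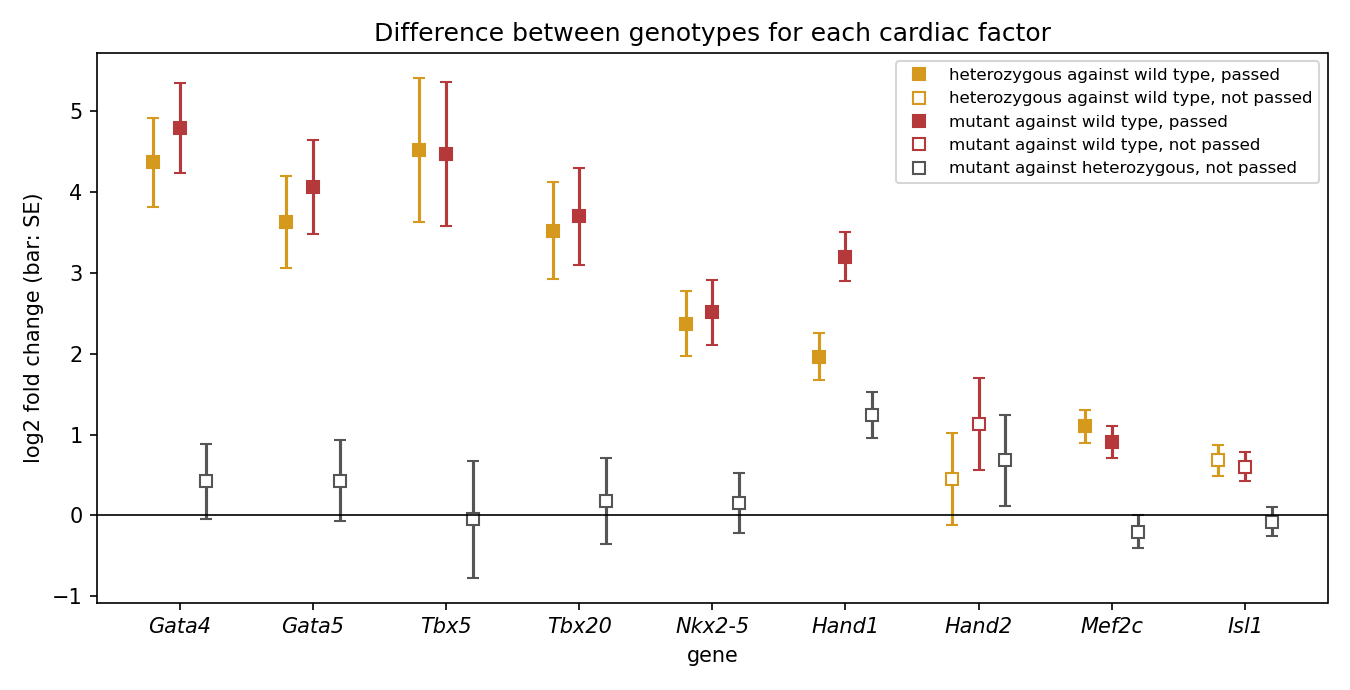
Log2 fold change of each factor in mutant against wild type, heterozygous against wild type and mutant against heterozygous. Bars are the standard error derived from the quasi-likelihood F statistic, and filled squares passed at an adjusted p of 0.05. The first pair of contrasts lies side by side for most factors, and in the third no factor passed, with Hand1 (1.24) and Hand2 (0.68) highest.

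Between mutant and heterozygous heads, 0 of the 9 members passed by edgeR's quasi-likelihood test, where 0.435% of all genes were called in either direction, and 1, Hand1, had an unadjusted p under 0.05. Hand1 was 2.37-fold higher in mutants (log2 1.24, SE 0.28, adjusted p = 0.101), and DESeq2 and edgeR's likelihood ratio test each called it, while limma-voom called 0 members. The log2 differences of the other eight lay between -0.20 (SE 0.20) for Mef2c and 0.68 (SE 0.56) for Hand2, and the standard errors reached 0.72, for Tbx5. Both mutant libraries were high in Xist and both heterozygous ones low, so embryo sex and genotype cannot be told apart within this pair of groups. In a fit with an Xist covariate, whose size rests on the wild-type pair alone, the log2 differences were 2.39 for Gata4, 2.24 for Gata5, 4.61 for Tbx5, 2.14 for Tbx20, 1.28 for Nkx2-5, 0.79 for Hand1 and -1.32 for Hand2, with 0 members past the threshold and 6 at an unadjusted p under 0.05. That pair also differed in the decidual sum (7.55 and 355 CPM) and in the summed cardiac sarcomere genes without Tpm1 (239 and 55.1 CPM). The covariate carries any such difference along with Xist, so these values are not differences adjusted for embryo sex alone.

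The heterozygous level was also set against the midpoint of wild type and mutant on the log2 scale. By edgeR's quasi-likelihood test 0 of the 9 members passed, where 0.632% of all genes did, and 6 had an unadjusted p under 0.05. DESeq2 called 1, edgeR's likelihood ratio test 5 and limma-voom 0. Gata4 lay 1.98 above the midpoint (SE 0.40, adjusted p = 0.174), Tbx5 2.28 (SE 0.64, adjusted p = 0.32) and Hand1 0.36 (SE 0.24, adjusted p = 0.686). Without wild-type library 1, 4 members passed (Gata4, Gata5, Tbx5 and Tbx20), without wild-type library 2, 2 (Gata4 and Tbx5), and without mutant library 1, 1 (Mef2c). On the linear scale the heterozygous mean reached 74.0% of the way from wild type to mutant for Gata4, 72.6% for Gata5, 87.4% for Tbx20 and 88.2% for Nkx2-5. It passed the mutant mean for Tbx5 (104%) and Mef2c (131%), and stopped at 35.2% for Hand1. The heterozygous sarcomere sum stood at 151%, the visceral endoderm sum at 51.3% and the trunk sum at 23.0%.

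**Figure D3:**
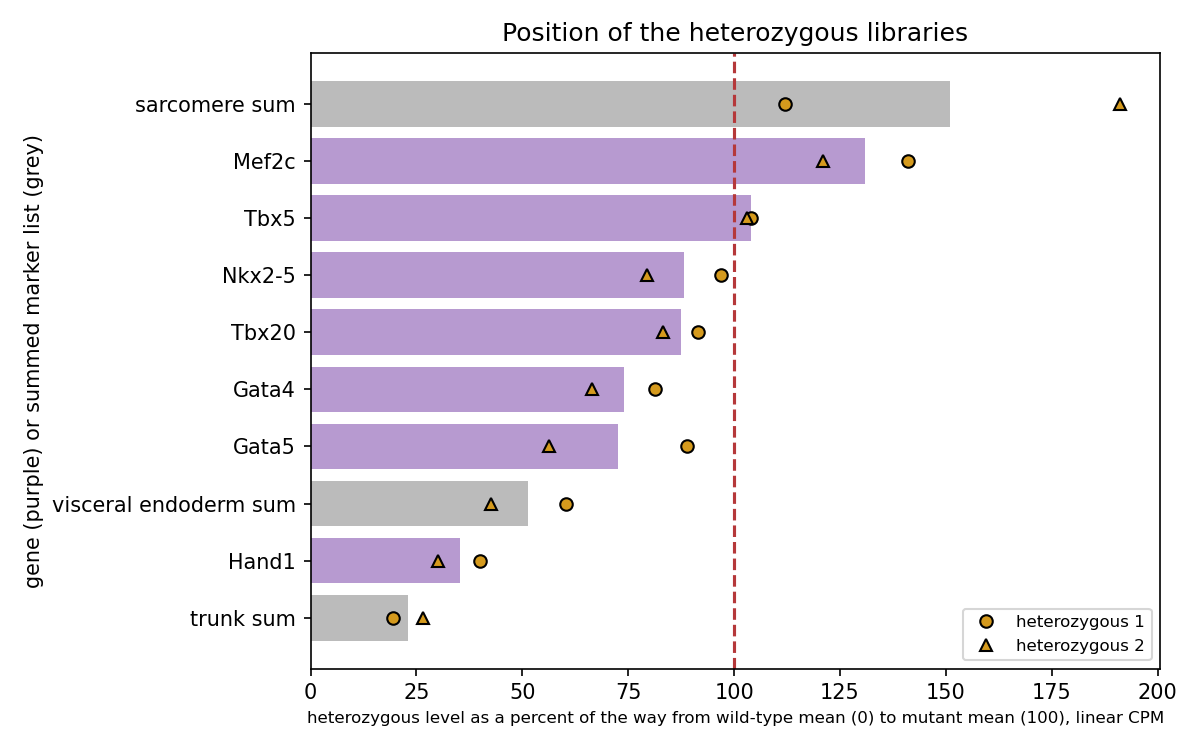
Position of the heterozygous libraries between the wild-type mean (0) and the mutant mean (100), in percent on the linear CPM scale, for the 7 factors that passed (purple) and 3 summed marker lists (grey); bars are means of 2 libraries and symbols single ones. Hand1 lies lowest of the factors and Mef2c highest.

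Levels of different genes can be compared per length, as RPKM. In wild-type heads Hand2 (mean 14.9 RPKM) and Hand1 (11.1) led, followed by Isl1 (5.94), Mef2c (5.35) and Nkx2-5 (5.31), then Gata5 (1.89), Gata4 (1.47), Tbx20 (1.28) and Tbx5 (0.297). Neighbours in this order overlapped between libraries, except Hand1 with Isl1 and Nkx2-5 with Gata5. In mutants Hand1 led with 101 RPKM, followed by Gata4 (41.1), Hand2 (32.2), Gata5 (31.7) and Nkx2-5 (30.3), and Tbx5 (6.80) was again last. The ranges of Hand2, Gata5 and Nkx2-5 overlapped in mutants, as did those of Mef2c and Isl1, and Gata4 (33.9 to 48.3) overlapped Gata5 (25.5 to 37.8) and Nkx2-5 (23.6 to 36.9). In heterozygotes the order ran from Hand1 (43.0) and Gata4 (30.9) to Isl1 (9.47) and Tbx5 (7.07).

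The make-up of the set shifted with genotype. Of the summed RPKM of the 9, Gata4 held 5.49% and 1.14% in wild types and 14.5% to 16.4% in all 4 carrier libraries. Isl1 held 16.1% and 9.5% in wild types, 5.13% and 4.91% in heterozygotes and 2.65% and 4.0% in mutants. Hand1 held 22.0% and 24.6% in wild types, 23.1% and 22.7% in heterozygotes and 38.3% and 33.5% in mutants, the only member whose share set the mutants apart from both other groups upwards. The ratio of Gata4 to Nkx2-5 was 0.322 and 0.179 in wild types, 1.14 and 1.11 in heterozygotes and 1.31 and 1.44 in mutants.

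**Figure D4:**
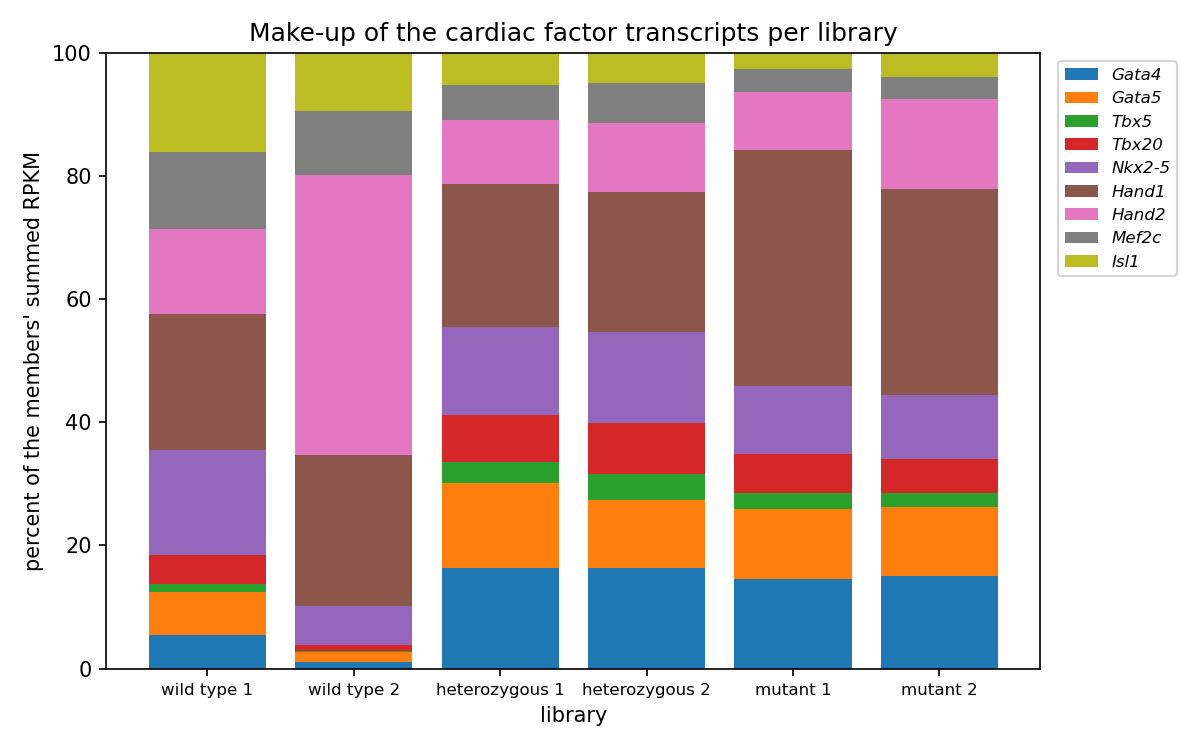
Share of each factor in the summed RPKM of the 9 (percent), 1 stacked bar per library. Hand2 takes 45.4% of wild-type library 2, and Hand1 takes the largest share in the other 5 libraries, at 38.3% and 33.5% in mutants.

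Other heart genes were read from lists chosen with earlier results of these data known. Over all genes tested, 17.1% were called higher and 13.6% lower in mutants, and 6.03% higher and 0.533% lower in heterozygotes. Of the 30 other heart transcription factors and cofactors, 28 were tested, and 15 were higher and 1 lower in mutants, with a median log2 fold change of 0.40; 7 were higher in heterozygotes. Gata6, the third GATA factor of the heart and of endoderm, had 12.2 and 5.06 CPM in wild types, 71.0 and 61.5 in heterozygotes and 102 and 86.0 in mutants (log2 3.43, SE 0.39, adjusted p = 0.00329). Zfpm1, a cofactor of GATA proteins, rose by 2.44 (SE 0.15) and Tbx3, a factor of the conduction system, by 2.32 (SE 0.19) on the log2 scale in mutants, and the lower one was Nr2f2, an atrial and mesenchymal nuclear receptor (-1.40). Of 15 heart field signals tested, 7 were higher in mutants and 3 in heterozygotes, among them Bmp4, an inducer of cardiac fate (log2 2.07, SE 0.22), and 0 lower.

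Genes of the working heart tube were read the same way, against the same shares of all genes. Of 18 heart tube effector genes 15 were tested, and 10 were higher in mutants and 7 in heterozygotes, with 0 lower in either. Among the higher ones were the pacemaker channel Hcn4 (log2 2.49 and 2.66) and the calcium release channel Ryr2 (3.93 and 4.06). Gja5 (log2 -1.53, SE 0.55), Nppb (-2.77, SE 1.78) and Gja1 (-0.20, SE 0.12) lay the other way in mutants without passing. Nppa, Pln and Sln were not tested, and each was at 0 in at least 1 library. Of 18 sarcomere genes, 13 were higher in mutants and 9 in heterozygotes. Tnnt2, the cardiac troponin T gene, had 19.1 and 2.47 CPM in wild types, 163 and 228 in heterozygotes and 208 and 132 in mutants. The sarcomere sum without Tpm1, which many cell types make, was 239 and 55.1 CPM in wild types, 1710 and 3030 in heterozygotes and 1960 and 983 in mutants. Per 100 CPM of those transcripts, Gata4 had 3.33 and 3.66 CPM in wild types, 6.72 and 3.13 in heterozygotes and 8.42 and 11.7 in mutants. Nkx2-5 had 4.64 and 9.18, 2.64 and 1.27, and 2.89 and 3.66, so in every carrier library Nkx2-5 was lower relative to these transcripts than in either wild type. Mef2c (14.2 and 63.1 in wild types, 2.33 to 5.14 in carriers) and Isl1 (7.28 and 22.7 against 0.696 to 2.33) were lower in the same way, also with Tpm1 in the sum. Both are also made outside the heart, and the sum they are divided by was far lower in wild types. These ratios are thus not levels per heart cell, and the part of other tissues in them was not tested. For Nkx2-5, with Tpm1 in the sum the groups overlapped, at 2.1 and 1.49 in wild types, 1.96 and 1.06 in heterozygotes and 2.11 and 2.36 in mutants. With Tpm1 in the sum, Gata4 had 1.51 and 0.594 in wild types, 4.98 and 2.62 in heterozygotes and 6.13 and 7.56 in mutants. Every carrier library then lay above both wild types.

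Markers of other tissues were read in the same libraries, against the 17.1% of all genes called higher and 13.6% called lower in mutants. In heterozygotes 6.03% of all genes were called higher. All 18 visceral endoderm (yolk sac) genes were higher in mutants and 17 in heterozygotes, and their sum was 302 and 303 CPM in wild types, 3730 and 2720 in heterozygotes and 6620 and 5370 in mutants, with Apoa4 at 0 in wild-type library 1. Of 9 trunk genes tested, 5 were higher in mutants; the sum of all 12 on the list was 43.5 and 16.0 CPM in wild types, 61.1 and 72.2 in heterozygotes and 110 and 270 in mutants, with Hoxa7 at 0 in both heterozygotes. Of 11 extraembryonic mesoderm and trophoblast genes tested 4 were higher, led by Foxf1 of extraembryonic and splanchnic mesoderm (log2 4.70), and 1 lower (Elf5, log2 -1.65), and Tpbpa was at 0 in 3 libraries. Prl3d1 and Prl2c2 of that list had 29.5 and 16.5 CPM in wild-type library 2, where Hand1 had 24.3 CPM. In every other library they had at most 2.62 and 1.64 CPM. Of 12 gut endoderm genes 6 were higher and 2 lower (Nkx2-1 and Pax9). Of 12 endothelial genes 2 were higher, a share near that of all genes. Neural progenitor genes fell in mutants for 9 of 12 (sums 1200 and 1120 CPM in wild types, 898 and 1020 in heterozygotes, 670 and 693 in mutants), crest genes for 8 of 12 with 1 higher (Snai2, log2 1.21), and motor neuron genes for 5 of 9. Of 11 head mesenchyme genes 6 were higher and 3 lower, and of 9 erythroid genes 1 was lower (Hbb-y). The sum of the 10 erythroid genes was 90.1 and 137 CPM in wild types, 22.7 and 12.5 in mutants and split in heterozygotes (7.15 and 119), with Hba-a1 at 0 throughout. The part of these tissues in the rise of the cardiac factors was not tested. The amount of heart, yolk sac or trunk tissue dissected with a head cannot be told apart from a change within it.

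**Figure D5:**
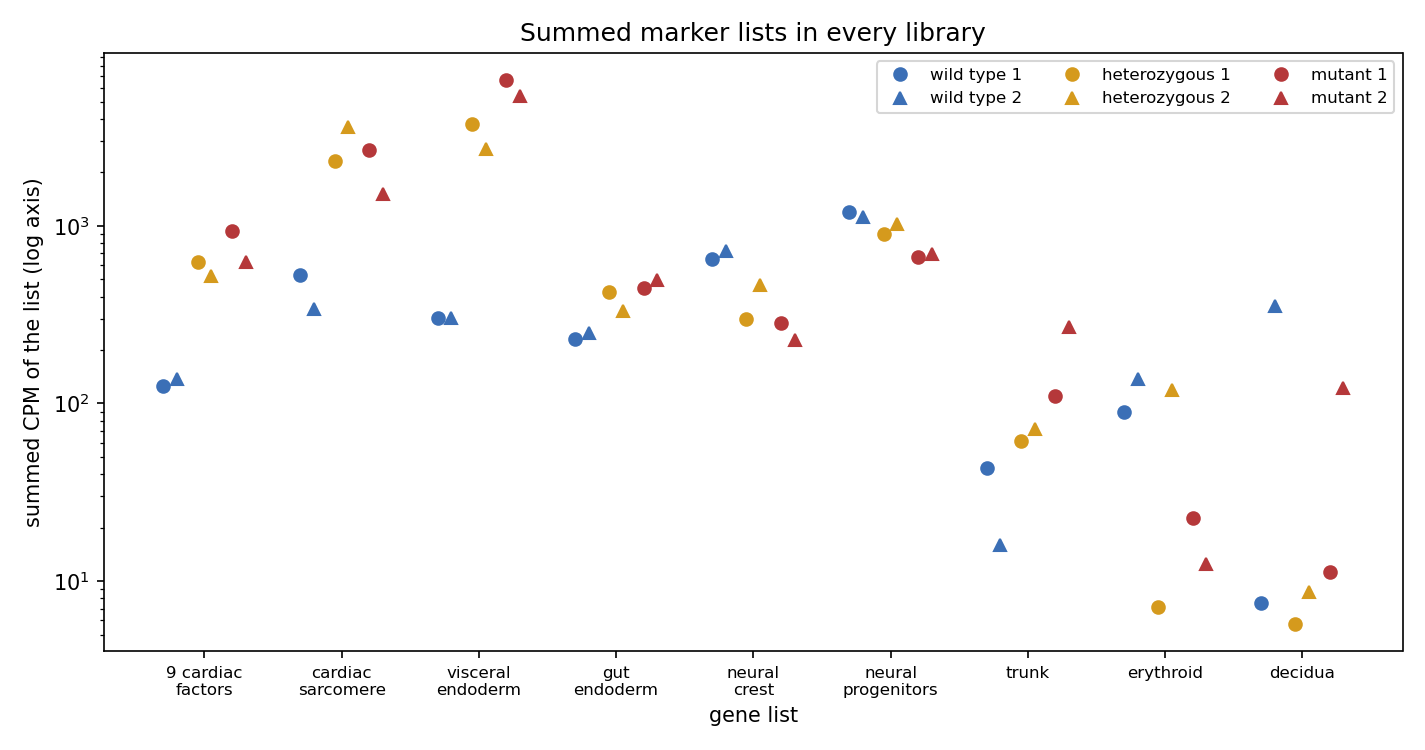
Summed CPM (log axis) of marker lists in the 6 libraries, points by genotype. The sarcomere and visceral endoderm sums separate wild types from carriers, and the decidual sum stands out in wild-type library 2 and mutant library 2.

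The genes closest in profile to each member over the 6 libraries were ranked by root mean square distance of centred log2(CPM + 0.5) among 12554 genes with a mean of at least 1 CPM, as a description. For Tbx5 they were Tnnt2 (0.215), Wnt2 (0.225) and the atrial myosin light chain gene Myl7 (0.23). For Nkx2-5 they were the cardiac splicing regulator Rbm20 (0.12), Rbm24 (0.162) and Alpk3 (0.172), and for Tbx20 Alpk2 (0.173), Ryr2 (0.262) and Wnt2 (0.27). Gata4 and Gata5 both had Wnt2 and Klb as the nearest pair, at 0.347 and 0.366 and at 0.318 and 0.34. For Hand1 they were Glyctk (0.0934), Pklr (0.124) and Gstm3 (0.132). Distances of genes at or under the added 0.5 CPM in a wild-type library rest on that addition. Gstm3 had 0.0242 and 0.0853 CPM in wild types and Klb 0.411 and 0.0284, and Wnt2 in wild-type library 2 and Unc13c in both lay under it too. The member Tbx5 itself had 0.0853 CPM in wild-type library 2, so all distances of Tbx5 rest on the addition. Hand2 was nearest to Anxa4 (0.115), Mef2c to Unc13c (0.0841) and Isl1 to Prdm1 (0.0425). Among the members, Gata5 and Tbx20 were closest (0.211) and Hand2 was farthest from Gata4 and from Tbx5 (2.03 each).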

How the data were processed

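RNA-seq was made from embryo heads at embryonic day 8.5, 6 libraries in 3 genotypes. The submitters' processing notes name mm10, edgeR 3.8.6, TopHat2 2.0.11, cutadapt 1.8, HTSeq 0.6.1p2, Trim Galore 0.4.0, bcl2fastq 2.17 and FastQC 0.11.2; annotation and strand setting were not given in the sources used here. The authors deposited raw counts per gene (24062 genes and 5 summary lines, which were left out) and a table with RPKM values per library, and a log2 fold change, a likelihood ratio score and p-values of their own; the score was not used.

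The count files of wild-type library 2 and mutant library 1 bear each other's titles and were assigned by title. The tests used edgeR 4.0.16 (R 4.3.3; glmQLFit, glmQLFTest, TMM, filterByExpr by group, all 6 libraries in 1 fit, Benjamini-Hochberg at 0.05 over 15187 genes); every adjusted p is from it where no other tool is given. Each SE is the absolute log2 fold change over the square root of the quasi-likelihood F statistic. The script was tested on simulated data. CPM values, summed ones too, use TMM sizes; 3 reads equal 0.0742 to 0.102 CPM, counting error only. The protocol speaks of 2 heads per genotype and litters are not given, so the p-values cover only the spread among libraries, which may be technical.

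The 9 members and all gene lists were chosen with earlier results of these data known. Named from a list are up to 4 genes with the smallest p in mutant against wild type, and for likeness the 3 nearest genes. The decidual list with Prl8a2, Nr2f2, Nkx2-1, Pax9, Hoxa7, Tpbpa, Prl3d1, Prl2c2, Phox2a, Gja5, Nppb, Gja1, Nppa, Pln and Sln were named after values were seen. Alternatives were DESeq2 1.42.0, limma 3.58.1, other scalings and filters, an Xist term, files as attached and leaving out each library. Promoter windows are from RefSeq and loci from GENCODE.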

Additional observations from a re-analysis of the deposited data

How the results depend on the processing

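No paired analysis was possible because the labels give no replicate numbers; the library numbers only name libraries. Each member was refitted in up to 18 alternatives. In mutant against wild type, 142 of 162 values kept their direction and side of the threshold, and in heterozygous against wild type 127 of 162. Leaving out 1 library gave 6 to 8 members passing in mutants, 0 to 7 in heterozygotes, 0 in each fit between mutant and heterozygous and 0 to 4 against the midpoint.

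With the count files as attached, 0 members passed in mutants and 0 in heterozygotes, and the log2 values in mutant against wild type were -0.56 for Gata4, -0.64 for Gata5, -0.85 for Tbx5, -0.83 for Tbx20, -0.72 for Nkx2-5, -0.63 for Hand1, -0.39 for Mef2c and -0.17 for Isl1. Hand1 was then -0.67 in heterozygous against wild type and -0.36 against the midpoint, and mutant against heterozygous gave -0.84 for Gata4, -0.84 for Gata5, -1.19 for Tbx20 and -1.03 for Nkx2-5. This follows from the exchange of a wild-type and a mutant file.

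Between mutant and heterozygous, DESeq2 called 1 member (Hand1), the likelihood ratio test 1 (Hand1), the fit of only these groups 1 (Hand2) and scaling to the neural progenitor list 1 (Hand1). Against the midpoint, DESeq2 called 1 (Mef2c) and the likelihood ratio test 5. Without a single library, 4 passed against the midpoint (without wild-type 1), 2 (without wild-type 2) and 1 (without mutant 1). With scaling to neural progenitor genes, the all-gene median was 0.74 in mutants; all 9 members then passed, with 11518 genes called in all, against 4654. In mutant against heterozygous it gave 0.45 for Tbx5, 0.30 for Mef2c and 0.40 for Isl1. The Xist term gave 4.61 for Tbx5, -1.32 for Hand2 and 0.39 for Isl1 there. Leaving out heterozygous 1 gave 0.09 for Isl1, and over leave-one-out fits Tbx5 ran from -0.48 to 0.27, Tbx20 from -0.25 to 0.50, Nkx2-5 from -0.22 to 0.43 and Mef2c from -0.54 to 0.07. Hand2 in heterozygous against wild type ran from -0.23 (without wild-type 1) to 1.76 (without wild-type 2). Against the midpoint, Hand2 was 0.04 and 0.02 on log2(RPKM + 0.1) and log2(RPKM + 1), 0.07 by limma-voom, 1.54 with the Xist term and from -0.46 (without wild-type 1) to 0.55 (without wild-type 2) over leave-one-out fits, and Tbx5 was -0.49 with the Xist term. The cause was not tested for any change except the exchange of files. The fit of only 2 groups could not be made for the midpoint. Counts of the other lists were not refitted under alternatives.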
